A study of Mus musculus with 80 samples.

Results

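The cytochrome P450, conjugation and aldehyde enzymes described here are oxidising, hydrolysing and reducing enzymes for foreign compounds, steroids, retinoids, fatty acids and reactive aldehydes. They were taken by a rule on gene symbols that holds no measured value, though earlier results of these data were known when members were chosen. The rule took every spotted cDNA clone with exactly 1 symbol from the families Cyp, Ugt, Sult, Ces, Aldh, Adh, Akr, Fmo and Hsd, or the symbol Ephx1 or Por. In all, 35 clones matched, and the 3 clones of Ces1f and Hsd3b1 were left out, as the rule states. That gave 32 clones of 28 genes, among 16896 clones on the arrays, of which 9663 carried exactly 1 symbol (7151 genes). None of the 32 carried a symbol of the glucuronosyltransferases (Ugt), sulfotransferases (Sult), flavin monooxygenases (Fmo) or of Por, the P450 reductase, so conjugating enzymes are not analysed here.

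Transcripts were measured in whole kidneys of 40 C57BL/6 mice, an inbred strain with no engineered allele named in the labels, fed regular chow freely until death. The 8 groups were males and females of 17 to 44, 169 to 194, 476 to 499 and 704 to 743 days, with 5 mice in each. The youngest group held 5 mice of 17 to 21 days (2 males and 3 females), and the sexes in it were not matched in days. Each mouse was hybridised to 2 nylon filters, set A with 12 of the clones and set B with 20, and the series compares age and sex. Values are scores with the array mean at 0 and 1 array SD as the unit, so a difference is in array SDs and cannot be read as a fold. Levels of different clones are not compared, since brightness also depends on the clone. In whole kidney, fewer cells of a type and less RNA per cell cannot be told apart.

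P450 enzymes are haem proteins that insert oxygen into lipophilic substrates with electrons from P450 reductase and cytochrome b5. Hydrolases open the esters and epoxides, and alcohol and aldehyde dehydrogenases carry the alcohols and aldehydes on to acids, while aldo-keto reductases and hydroxysteroid dehydrogenases work on carbonyl and hydroxyl groups of sugars and steroids. In the kidney these enzymes are mainly known from the proximal tubule, and several families differ between male and female rodents under the control of sex and growth hormones.

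All 80 arrays correlated with the others of their set, at a mean Pearson r of 0.888 to 0.965 in set A and 0.915 to 0.975 in set B. No value was missing and no arrays were identical. 5 mice had an array below the fence of 1.5 interquartile ranges: males 1 and 5 of 17 to 44 days, male 4 and female 5 of 169 to 194 days, and female 4 of 704 to 743 days (mice are numbered within their group). Within a group the SD of a clone had a median of 0.155 over the enzyme clones and 0.175 over all clones. It was smallest for Hsd17b10 (0.0726) and largest for Aldh9a1 (0.367). Cyp7b1, Aldh2 and both clones of Akr1b10 were among the dimmest 25% of their set. Each mouse is a separate animal in the labels, and p-values set a difference against the spread between these mice. With a single filter of each set per mouse, that spread also holds differences between hybridisations.

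Akr1a1 and Akr1c14 gave the smallest p-values between the sexes, and their promoters are shown for that reason, from RefSeq on GRCm38.p6, 250 bases before to 50 after the start, with capitals for matches to the 5 strings searched below.
Akr1a1, chr4:116651625-116651924, minus strand: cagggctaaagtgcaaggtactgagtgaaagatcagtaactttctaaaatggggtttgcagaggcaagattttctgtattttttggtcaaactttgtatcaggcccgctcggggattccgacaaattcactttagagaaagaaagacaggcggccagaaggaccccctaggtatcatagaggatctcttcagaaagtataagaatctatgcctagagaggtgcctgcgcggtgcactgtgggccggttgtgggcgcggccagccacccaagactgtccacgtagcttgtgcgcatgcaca
Akr1c14, chr13:4059341-4059640, plus strand: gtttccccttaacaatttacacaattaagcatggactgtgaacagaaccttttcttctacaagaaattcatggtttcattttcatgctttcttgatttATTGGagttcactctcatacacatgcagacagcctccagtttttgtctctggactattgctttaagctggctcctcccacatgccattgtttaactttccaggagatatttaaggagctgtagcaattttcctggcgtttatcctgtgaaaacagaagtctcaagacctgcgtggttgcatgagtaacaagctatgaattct
GC content was 50% in the first and 39.7% in the second. Of the 28 genes, 20 had such a window, and some had several starts, 24 windows in all. Both strands were searched for the TATA box (TATAAA), which was in 2 of the 24 windows and in 13.6% of all 32851 windows of that length. The box CCAAT was in 14 of 24 and in 37.4% of all. The GC box (GGGCGG) was in 12 of 24 and in 35.7% of all. The core of the androgen and glucocorticoid receptor site (AGAACA) was in 4 of 24 and in 19% of all. The antioxidant response core (TGACNNNGC) was in 4 of 24 and in 12.4% of all. Akr1c14 had 1 match, the CCAAT box read on the minus strand at -152 from the start. Akr1a1 had none, which says only that these letters are not in this window.

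No clone of the 32 passed an adjusted p of 0.05 in any of 7 comparisons (limma, Benjamini-Hochberg over 16896 clones). Over all clones, 0.107% were called between the sexes over all ages and 0.0888% between the sexes in the 3 older groups. The other 5 comparisons called 0% of all clones: the sex difference in the older groups minus that in the youngest, the F test for a sex difference that varies with age, the early age step (169 to 194 minus 17 to 44 days), the late one (704 to 743 days against 169 to 194) and the slope with age. At an unadjusted p under 0.05, 6 of the 32 differed between the sexes over all ages, against 4.48% of all clones, and 5 in the older groups, against 4.45%. Both clones of Akr1a1 were in each of these counts. For the change of the sex difference the count was 1 of 32 (2.15% of all clones), for the F test 0 (3.23%), for the early age step 1 (5.08%), for the late age step 1 (2.36%) and for the slope 2 (5.20%). The counts overlap between comparisons, because the same mice enter each, and both age steps share the mice of 169 to 194 days.

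Between the sexes over all ages, 22 of the 32 clones had the higher mean in males, with a median difference of 0.0326, while over all clones 49.2% were higher in males with a median of -0.00117. Differences ran from -0.106 for Cyp2s1 to 0.155 for Akr1c14. The aldo-keto reductases were higher in males on 7 of 8 clones, of 5 genes (median 0.0714). Both clones of Akr1a1, which lie on the same filter, are among those 7. The aldehyde dehydrogenases were higher in males on 8 of 10 clones, of 10 genes (median 0.0398). Of the P450 clones, 4 of 8 were higher in males. None of these differences passed the test, and the lowest adjusted p was 0.594 (limma). Leaving out 1 mouse turned the direction of 7 of the 32 clones: Cyp1b1, Cyp39a1, Cyp7b1, Aldh1a2, Aldh9a1, Akr1b10 (11990) and Hsd17b4 (9270).

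**Figure D1:**
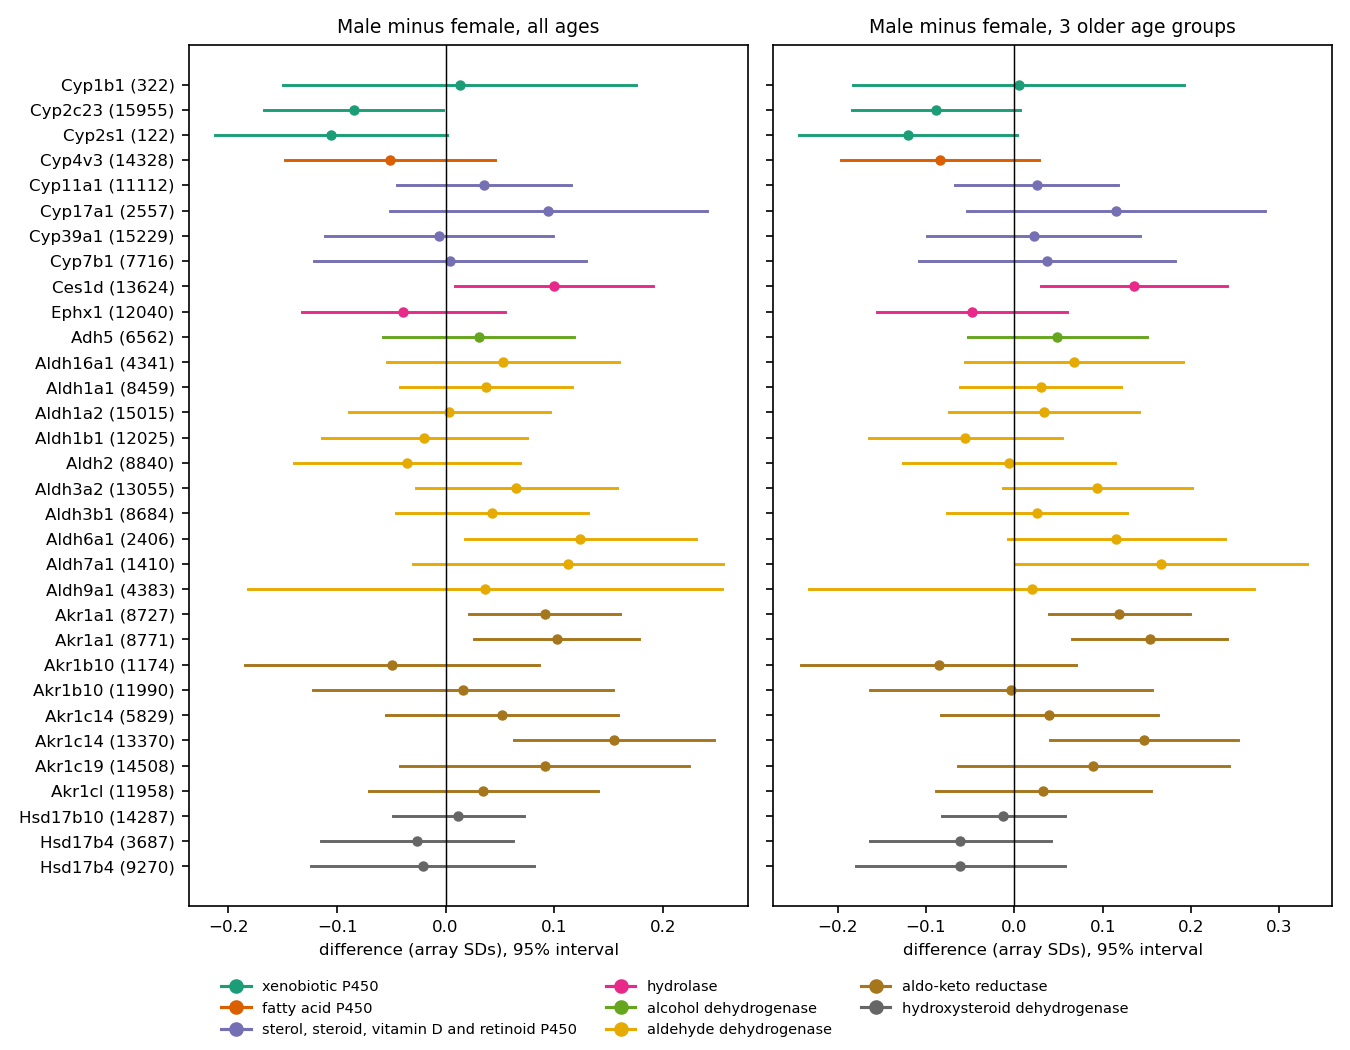
Male minus female difference of each of the 32 clones in array SDs (point) with its 95% interval (line), over all ages on the left and in the 3 older age groups on the right, coloured by enzyme role, with the clone number in brackets. Akr1c14 (13370) lies farthest right on the left panel at 0.155, and Cyp2s1 lies farthest left at -0.106.

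Akr1c14 is a hydroxysteroid dehydrogenase of the aldo-keto reductase family. On clone 13370 the males scored -0.0156, -0.297, -0.226, -0.367 and -0.443 at 17 to 44 days, where the females scored -0.587, -0.427, -0.416, -0.431 and -0.386. At 169 to 194 days males scored -0.326, -0.093, -0.122, -0.0485 and -0.403, and females -0.201, -0.412, -0.372, -0.37 and -0.589. Most males lay above most females at both ages, with overlap. At 476 to 499 days males scored -0.347, -0.156, -0.4, -0.154 and -0.251, and females -0.383, -0.456, -0.386, -0.318 and -0.732. At 704 to 743 days males scored -0.213, -0.247, -0.538, -0.321 and -0.425, and females -0.545, -0.487, -0.518, -0.281 and -0.194. The sexes overlapped most in this oldest group, where the difference was 0.0562 ± 0.091 (SE), beside 0.18, 0.191 and 0.193 at the 3 younger ages. Over all mice the mean was -0.27 ± 0.142 (SD, n = 20) in males and -0.424 ± 0.13 (SD, n = 20) in females. The difference was 0.155 ± 0.0455 (SE, 95% interval 0.0629 to 0.247, limma p 0.00155, adjusted p 0.594), in the same direction in 14 of 20 couples of 1 male and 1 female of a round and age. Rounds are 5 blocks of arrays read from serial numbers in the titles, each with 1 mouse of every group, and the difference had the same sign in 5 of 5 rounds (0.095 to 0.247). Fitted with rounds as a block, the adjusted p became 0.4, and with array weights 0.221 (limma). It rose to 0.684 without the 5 mice with an outlying array and to 0.982 on unnormalized scores. It was highest without the mice of 17 to 21 days. The gene's other clone, 5829 on set A, gave 0.0517 ± 0.0528 (interval -0.055 to 0.158).

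Akr1a1, the aldehyde reductase that also turns glucuronate into gulonate on the mouse's route to vitamin C, was represented by 2 clones of set B. On clone 8771 the males scored 0.568, 0.416, 0.452, 0.336 and 0.355 at 17 to 44 days and the females 0.46, 0.413, 0.436, 0.522 and 0.546. At 169 to 194 days males scored 0.573, 0.66, 0.562, 0.397 and 0.612, and females 0.599, 0.589, 0.455, 0.342 and 0.503. The sexes were intermixed at both ages. At 476 to 499 days males scored 0.732, 0.745, 0.521, 0.435 and 0.69, and females 0.431, 0.43, 0.405, 0.459 and 0.495. At 704 to 743 days males scored 0.341, 0.526, 0.6, 0.507 and 0.52, and females 0.451, 0.414, 0.328, 0.0118 and 0.208. In both older groups 4 of 5 males lay above every female, and the groups still overlapped through 1 male.

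The sex difference on clone 8771 was -0.0501 ± 0.0752 (SE) at 17 to 44 days, 0.063 at 169 to 194, 0.181 at 476 to 499 and 0.216 at 704 to 743 days. Over the 3 older groups it was 0.153 ± 0.0434 (SE, interval 0.0654 to 0.241, limma p 0.00109, adjusted p 0.497), the same way in 12 of 15 couples and 5 of 5 rounds (0.0547 to 0.205). Fitted with rounds as a block, it had an adjusted p of 0.239, and with array weights 0.274 (limma). The adjusted p rose to 0.527 on unnormalized scores and to 0.775 without the mice of 17 to 21 days. Over all ages the difference was 0.102 ± 0.0376 on 8771 and 0.0911 ± 0.0343 on 8727 (limma adjusted p 0.982 for both). The second clone, 8727, gave 0.119 ± 0.0396 (adjusted p 0.917) in the older groups, in 11 of 15 couples. Subtracting the youngest group's difference left 0.203 ± 0.0869 on 8771 (limma p 0.0244, adjusted p 0.999) and 0.112 ± 0.0792 on 8727. The F test for a sex difference that varies with age gave p 0.0668 on 8771 (adjusted p 0.99998). Female 4 of 704 to 743 days, which scored 0.0118, had an outlying array. Without the 5 mice with such an array the difference of the older groups on 8771 was 0.145 (adjusted p 0.295).

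The 2 Akr1a1 clones moved together from mouse to mouse. Deviations from the group means correlated at Pearson r 0.832 and Spearman rho 0.805 over 40 mice (both permutation p 1e-05, the smallest that 100000 resamples can give, and adjusted p 4e-05 over 4 gene pairs). The r was 0.773 without the 2 mice farthest from the median and 0.828 within rounds. The clones lie on the same filter, so they share its hybridisation. The other 3 genes with 2 clones had one on each filter, a comparison added after the data were seen, and gave r -0.244 for Akr1b10, -0.148 for Akr1c14 and -0.127 for Hsd17b4 (permutation p 0.13, 0.364 and 0.436, adjusted p 0.26, 0.436 and 0.436). Their Spearman rho was -0.203, -0.15 and -0.109 (adjusted p 0.414, 0.473 and 0.501), and without the 2 farthest mice r was -0.111, -0.118 and -0.23. Within rounds it was -0.337, -0.11 and -0.00117.

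**Figure D2:**
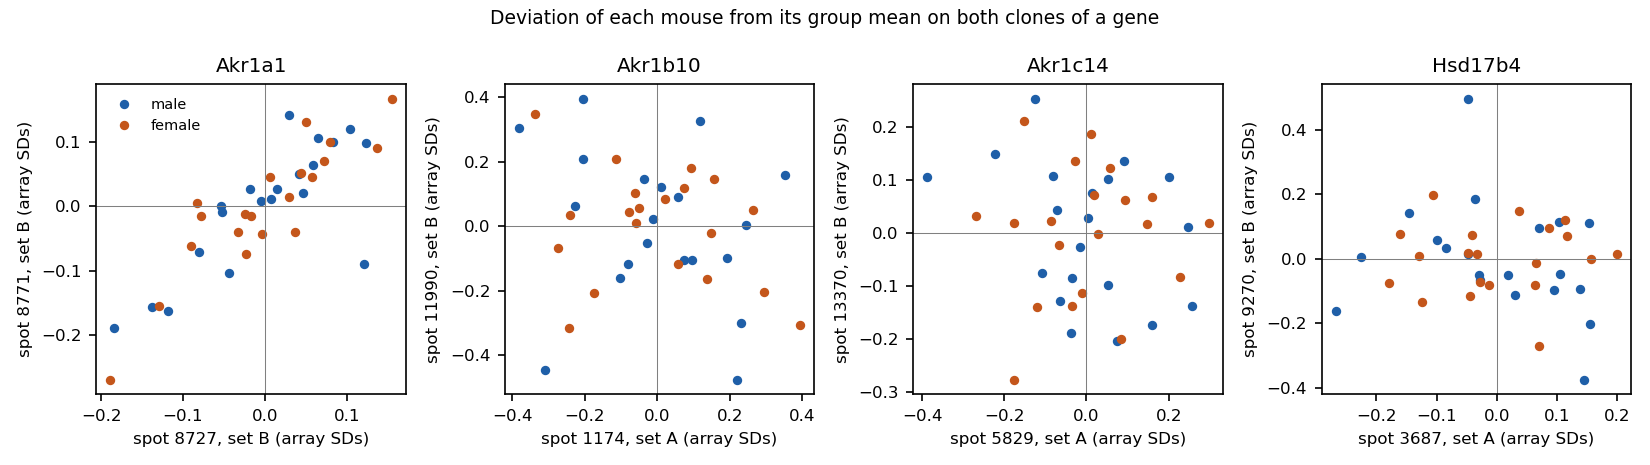
Deviation of each of the 40 mice from the mean of its sex and age group, in array SDs, on one clone of a gene (x axis) and the other (y axis), males blue and females orange. Points follow a rising line for Akr1a1 (r 0.832) and none for Akr1b10, Akr1c14 and Hsd17b4 (r -0.244 to -0.127).

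The remaining aldo-keto reductases had wide intervals. Akr1b10, which reduces aldehydes and retinal, gave male minus female -0.0492 ± 0.0668 on clone 1174 and 0.0159 ± 0.0684 on clone 11990, both dim. Akr1c19 gave 0.0912 ± 0.0658 and Akr1cl 0.0345 ± 0.0521. For Akr1c19 a single mouse stood apart in females of 476 to 499 days, at 0.0257 beside -0.566 to -0.484 in the other 4, and another in females of 704 to 743 days, at 0.368 beside -0.649 to -0.417.

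Ces1d is a carboxylesterase that hydrolyses esters and triacylglycerol. Males scored 0.477, 0.714, 0.432, 0.402 and 0.195 at 17 to 44 days, 0.689, 0.717, 0.431, 0.693 and 0.556 at 169 to 194, 0.663, 0.66, 0.566, 0.63 and 0.512 at 476 to 499, and 0.725, 0.59, 0.52, 0.711 and 0.471 at 704 to 743 days. Females scored 0.278, 0.349, 0.67, 0.502 and 0.461, then 0.431, 0.6, 0.528, 0.42 and 0.569, then 0.8, 0.448, 0.457, 0.491 and 0.371, then 0.55, 0.442, 0.432, 0.0925 and 0.471. The sexes overlapped at every age, and the lowest score of all, 0.0925, was that of female 4 of 704 to 743 days. Male means were 0.568 ± 0.139 and female means 0.468 ± 0.145 (n = 20, SD), a difference of 0.0996 ± 0.0451 (SE, adjusted p 0.982), and 0.135 ± 0.0521 in the 3 older groups (adjusted p 0.996, both limma). The difference over all ages had the same sign in 14 of 20 couples and 3 of 5 rounds (-0.0344 to 0.232). The older groups' difference minus that of the youngest was 0.143 ± 0.104 (adjusted p 0.999, limma), and 0.0812 without male 5 or 0.089 without female 3 of 17 to 44 days. Ephx1, the microsomal epoxide hydrolase, gave -0.039 ± 0.0461 (interval -0.132 to 0.0543). Adh5, the alcohol dehydrogenase that clears formaldehyde bound to glutathione, gave 0.0306 ± 0.0434 (interval -0.0572 to 0.118).

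Among the P450 clones Cyp2c23, Cyp2s1, Cyp4v3 and Cyp39a1 had the lower mean in males. Cyp2c23 is an arachidonic acid epoxygenase of the kidney. Males scored 0.144, 0.0127, -0.0465, 0.116 and -0.159 at 17 to 44 days, -0.122, 0.182, -0.0185, -0.106 and -0.276 at 169 to 194, -0.122, 0.0111, -0.0948, 0.107 and 0.102 at 476 to 499, and 0.172, 0.0158, 0.214, 0.16 and -0.037 at 704 to 743 days. Females scored 0.12, 0.189, 0.092, -0.0185 and 0.05, then 0.0615, 0.174, 0.103, 0.0527 and 0.019, then 0.392, 0.239, 0.0617, 0.165 and -0.0291, then 0.113, 0.151, 0.0922, 0.081 and -0.156. The sexes overlapped at every age, and the oldest males had a higher mean than the oldest females, by 0.0488 ± 0.0814. Without female 5 of that group, which scored -0.156, this turned to -0.00423. Over all ages the difference was -0.0848 ± 0.0407 (SE, limma adjusted p 0.982), in 12 of 20 couples and 5 of 5 rounds (-0.153 to -0.000656). In the 3 older groups it was -0.0887 ± 0.047.

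Cyp2s1, an inducible P450 of tissues outside the liver, had a mean of 0.871 ± 0.143 over males (SD, n = 20) and 0.977 ± 0.179 over females. Male means were 0.921, 0.786, 0.909 and 0.867 from the youngest to the oldest group, and female means 0.982, 1.01, 1.04 and 0.871, with SDs of 0.0913 to 0.235. The oldest groups were closest. Its difference was -0.106 ± 0.0529 (SE, limma adjusted p 0.982), in 11 of 20 couples and 5 of 5 rounds (-0.228 to -0.00934). Without the 5 mice with an outlying array it was -0.158 (adjusted p 0.69). Cyp4v3, a fatty acid hydroxylase, gave -0.0512 ± 0.048, and 0.0107 without the mice of 17 to 21 days, so its direction over all ages depended on those mice. In the 3 older groups it gave -0.0842 ± 0.0555. Cyp1b1, which oxidises oestrogens and polycyclic compounds, gave 0.0128 ± 0.0803 (interval -0.15 to 0.175).

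The 4 sterol and steroid P450 clones did not pass between the sexes. Cyp11a1, which cuts the side chain of cholesterol to make pregnenolone, gave 0.0351 ± 0.0395. Cyp39a1 and Cyp7b1, hydroxylases of oxysterols, gave -0.00632 ± 0.0518 and 0.00405 ± 0.0619. Cyp17a1, a hydroxylase and lyase on the route to androgens, gave 0.0946 ± 0.0721 and had the smallest p of the F test among the 32 (0.0598, adjusted p 0.99998). Its sex difference was 0.388 ± 0.144 at 476 to 499 days and -0.18 ± 0.144 at 704 to 743 days. In each of these groups 1 mouse scored above the others: 1 male of 476 to 499 days scored 0.323 beside -0.671 to -0.192 in the other 4, and 1 female of 704 to 743 days scored 0.416 beside -0.696 to -0.63. Without that male the difference at 476 to 499 days was 0.231, and without that female the difference at 704 to 743 days turned to 0.036. Cyp7b1 was the other P450 among the 3 smallest p-values of the F test (0.0762, adjusted p 0.99998), with a sex difference of 0.293 ± 0.124 at 704 to 743 days and differences of -0.126 to -0.0552 at the 3 younger ages. The value of -0.0552, at 169 to 194 days, turned to 0.135 without male 4, which scored -1.72 and had an outlying array.

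Over all ages the aldehyde dehydrogenases gave intervals that included 0 except for Aldh6a1, the methylmalonate semialdehyde dehydrogenase of valine breakdown. Its lowest, median and highest scores were -0.118, 0.138 and 0.398 in males and -0.249, 0.0592 and 0.374 in females. The sexes overlapped over most of that range. The difference was 0.124 ± 0.0527 (SE, interval 0.0176 to 0.231, limma adjusted p 0.982), in 15 of 20 couples and 4 of 5 rounds (-0.0166 to 0.245). The retinaldehyde dehydrogenases Aldh1a1 and Aldh1a2 gave 0.037 ± 0.0392 and 0.00337 ± 0.0458. The mitochondrial acetaldehyde enzymes Aldh1b1 and Aldh2 gave -0.0198 ± 0.0466 and -0.0356 ± 0.0513. Aldh3a2, the fatty aldehyde dehydrogenase, gave 0.0651 ± 0.0458, Aldh3b1 0.0426 ± 0.0437, Aldh16a1 0.0533 ± 0.0528, and Aldh9a1, which takes part in carnitine synthesis, 0.0359 ± 0.108.

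Aldh7a1, an enzyme of lysine breakdown, gave 0.113 ± 0.0705 over all ages. It showed the largest departure of any group from a clone's overall mean, 0.388 in males of 476 to 499 days. Those males scored 0.0457, 0.0398, -0.0395, -0.237 and 1.05, so 1 mouse stood apart from the other 4. The sex difference was 0.436 ± 0.141 at that age and -0.00505 ± 0.141, -0.0486 ± 0.141 and 0.0674 ± 0.141 at 169 to 194, 17 to 44 and 704 to 743 days. In the 3 older groups together it was 0.166 ± 0.0814 (limma p 0.0479, adjusted p 0.996). Without the male that scored 1.05 the difference was 0.0932 in the older groups and 0.217 at 476 to 499 days.

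The hydroxysteroid dehydrogenases lay close to 0 between the sexes. Hsd17b10, a mitochondrial enzyme of isoleucine breakdown, gave 0.0117 ± 0.0297 (interval -0.0484 to 0.0719). Its male means were 1.11, 1.12, 1.1 and 1.06 from the youngest to the oldest group and its female means 1.02, 1.09, 1.08 and 1.15. The males were above the females at 17 to 44 days by 0.0837 ± 0.0595 and below them at 704 to 743 days by a difference of -0.0871 ± 0.0595. The older groups' sex difference minus that of the youngest was -0.0959 ± 0.0687 (limma adjusted p 0.999). Hsd17b4, the peroxisomal bifunctional protein of fatty acid oxidation, gave -0.0262 ± 0.0438 on clone 3687 and -0.0213 ± 0.0506 on clone 9270. Its older groups' difference minus that of the youngest was -0.14 ± 0.101 and -0.16 ± 0.117 on the same clones, and on 9270 it was -0.0355 without male 1 of 17 to 44 days and -0.253 without male 5.

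**Figure D3:**
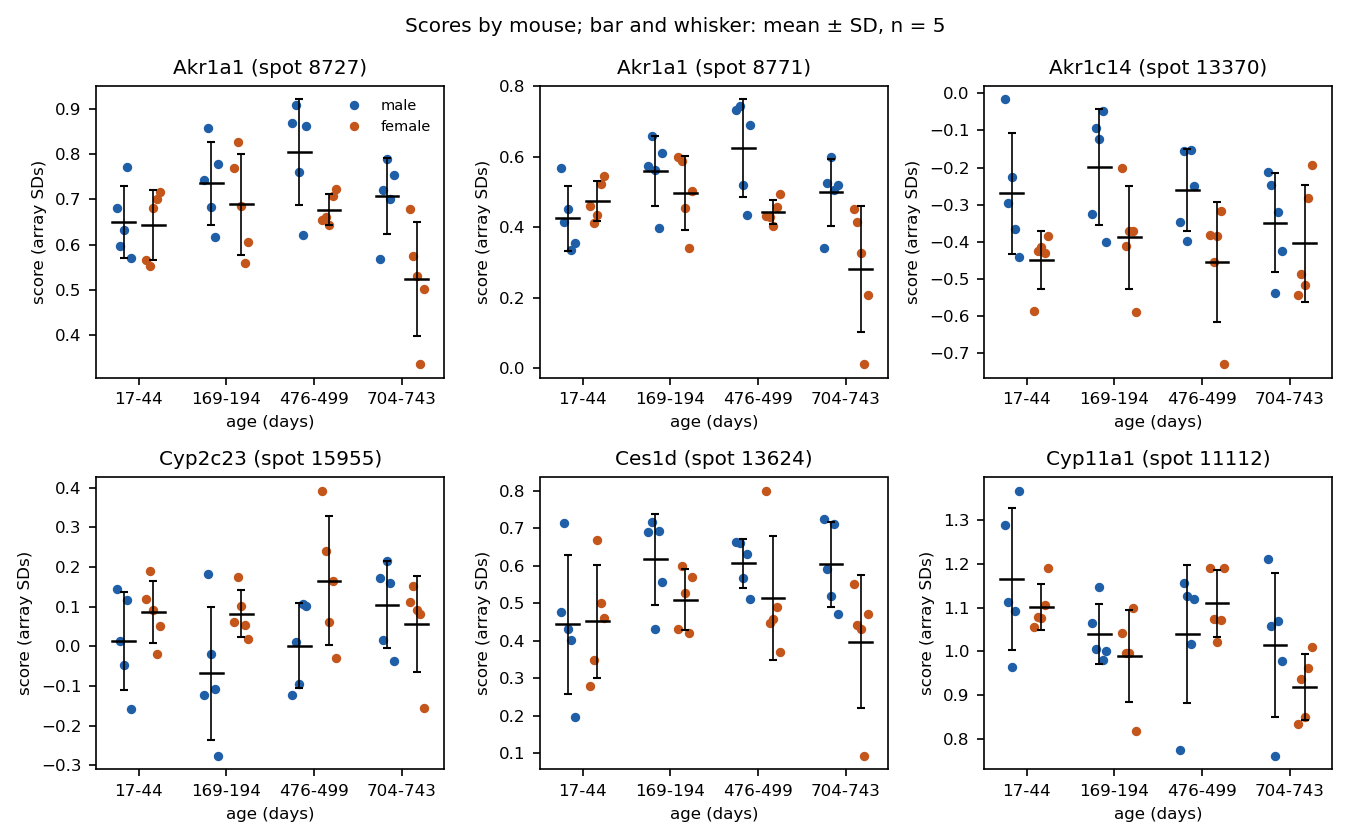
Score of each mouse in array SDs by age in days, males blue and females orange, with the group mean as a bar and the SD as whiskers (n = 5), for both Akr1a1 clones, Akr1c14 (13370), Cyp2c23, Ces1d and Cyp11a1. On Akr1a1 (8771) the males of 476 to 499 days averaged 0.625 and the females 0.444, and at 704 to 743 days 0.499 and 0.283.

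With age the clones were called neither early nor late. From 17 to 44 to 169 to 194 days, 20 of 32 clones had the higher mean at the older age (median 0.0403), and from 169 to 194 to 704 to 743 days 14 of 32 did (median -0.0183). Over all clones 51% did at the first step (median 0.0022) and 50.6% at the second (median 0.00099). Among the 32 clones the lowest adjusted p was 0.933 for the first step and 0.9997 for the second (limma). For the slope per year, 18 of 32 clones were positive, with a median of 0.0032 and a lowest adjusted p of 0.937. Over all clones 50.3% were positive, with a median of 0.000255. At the second step 6 of 8 aldo-keto reductase clones, of 5 genes, had the lower mean at 704 to 743 days (median -0.0908). Both clones of Akr1a1 are among those 6.

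Cyp11a1 had the smallest p of the first step. Males scored 1.29, 1.11, 0.964, 1.09 and 1.37 at 17 to 44 days and 1.07, 1.01, 1.15, 0.981 and 1 at 169 to 194 days. Females scored 1.06, 1.08, 1.08, 1.11 and 1.19, then 1.04, 0.997, 0.995, 1.1 and 0.818. The ages overlapped in both sexes. The difference was -0.119 ± 0.0559 (SE, interval -0.232 to -0.00557, limma adjusted p 0.933), with the same sign in 9 of 10 pairs of one sex and round and in 4 of 5 rounds (-0.37 to 0.0513). Without the 5 mice with an outlying array it was -0.0353 (adjusted p 0.99994), with array weights -0.0521 (adjusted p 0.9996), and without the mice of 17 to 21 days -0.188 (adjusted p 0.998). The slope was -0.0603 ± 0.0276 per year (adjusted p 0.937). The adrenal markers measured beside it, on 5 clones of 4 of 9 listed genes, were not called in either step. Neither step called any of the 16896 clones, so the lack of a call says nothing about these markers. The deviation of the adrenal markers from the clones' means, averaged over the 5 clones, had a mean of -0.0191 (range -0.211 to 0.114) at 17 to 44 days and 0.00979 (range -0.263 to 0.307) at 169 to 194 days. Of the 5 adrenal clones, 4 had the higher mean at 169 to 194 days and 1 the lower (median 0.0365). The lower one was Star, the cholesterol carrier of steroid synthesis, at -0.0245 ± 0.142. The part of adrenal tissue in the value of Cyp11a1 was not tested.

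Aldh2 and Ces1d had the higher mean at 169 to 194 days, by 0.138 ± 0.0725 and 0.115 ± 0.0638 (SE, limma adjusted p 0.933 for both). Aldh2 averaged -1.08, -0.886, -0.821 and -0.978 in males and -0.957, -0.877, -0.918 and -0.871 in females from the youngest to the oldest group. The youngest mice had the lowest mean in both sexes. Akr1a1 gave 0.0788 ± 0.0532 on clone 8771 and 0.0657 ± 0.0485 on 8727. Aldh1a1 gave -0.0734 ± 0.0554 (-0.0354 without male 5 of 17 to 44 days) and Aldh9a1 -0.206 ± 0.153. For Aldh9a1, 1 male of 17 to 44 days scored 2.56 beside 0.61 to 0.861 in the other 4, and without it the difference was -0.0258, while without female 1 of that age it was -0.135. The male that scored 2.56 had an outlying array.

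In the second step Akr1a1 clone 8771 had the smallest p. Its mean was 0.529 ± 0.102 (SD, n = 10) at 169 to 194 days and 0.391 ± 0.176 (SD, n = 10) at 704 to 743 days, a difference of -0.139 ± 0.0532 (SE, limma p 0.0129, adjusted p 0.9997). The sign was the same in 8 of 10 pairs and in 5 of 5 rounds (-0.194 to -0.0446). Clone 8727 gave -0.097 ± 0.0485. Without female 4 of 704 to 743 days the values were -0.105 and -0.0735. The mean of 8771 at 476 to 499 days was 0.534 ± 0.135 (SD, n = 10).

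Aldh16a1, a family member whose substrate is uncertain, had the largest positive value of the second step and slope. Males scored -0.296, -0.515, -0.171, -0.441 and -0.385 at 169 to 194 days and -0.537, -0.265, -0.269, -0.402 and -0.364 at 704 to 743 days. Females scored -0.55, -0.565, -0.461, -0.402 and -0.633, then -0.119, -0.29, -0.146, -0.345 and -0.308. At 17 to 44 days the means were -0.446 ± 0.222 in males and -0.456 ± 0.0994 in females, and at 476 to 499 days -0.263 ± 0.267 and -0.432 ± 0.185. All 5 oldest females lay above all 5 females of 169 to 194 days, and the males overlapped. Over both sexes the difference was 0.137 ± 0.0747 (SE, limma adjusted p 0.9997) and the slope 0.0795 ± 0.0363 per year (p 0.0338, adjusted p 0.937), positive in 5 of 5 rounds (0.0378 to 0.118). Without the 5 mice with an outlying array the slope was 0.0617 (adjusted p 0.971).

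The other named values of the late step and the slope had intervals that included 0. Ephx1 gave 0.0836 ± 0.0652 late and 0.0405 ± 0.0299 per year, Cyp2c23 0.0736 ± 0.0576 late, and Akr1b10 (1174) -0.141 ± 0.0945 late and -0.0623 ± 0.0468 per year. Aldh1b1 gave 0.0443 ± 0.0319 and Aldh3b1 -0.0448 ± 0.0285 per year. Leaving out 1 mouse moved 3 of these by over 1.5 times. Cyp2c23 was 0.0476 without male 5 of 169 to 194 days, the Akr1b10 slope -0.0366 without female 4 of 704 to 743 days, and the Aldh1b1 slope 0.0258 without female 5 of 17 to 44 days.

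**Figure D4:**
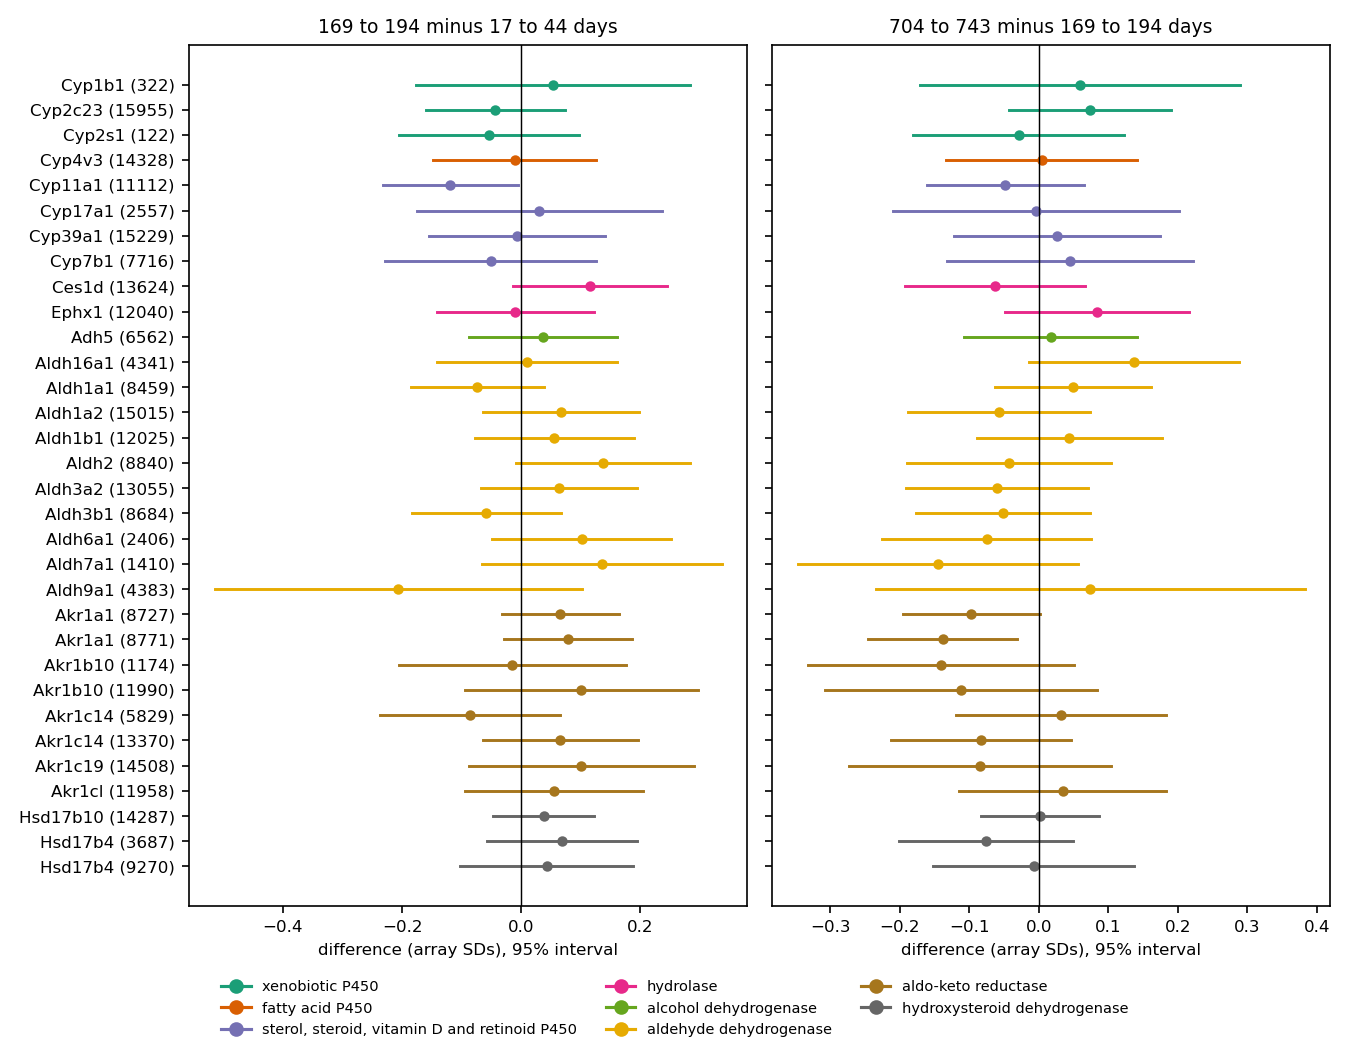
Difference of each of the 32 clones between ages in array SDs (points) with 95% intervals (lines), coloured by enzyme role, with the early step on the left and the late step on the right. Cyp11a1 lies at -0.119 in the early step and Akr1a1 (8771) at -0.139 in the late step.

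**Figure D5:**
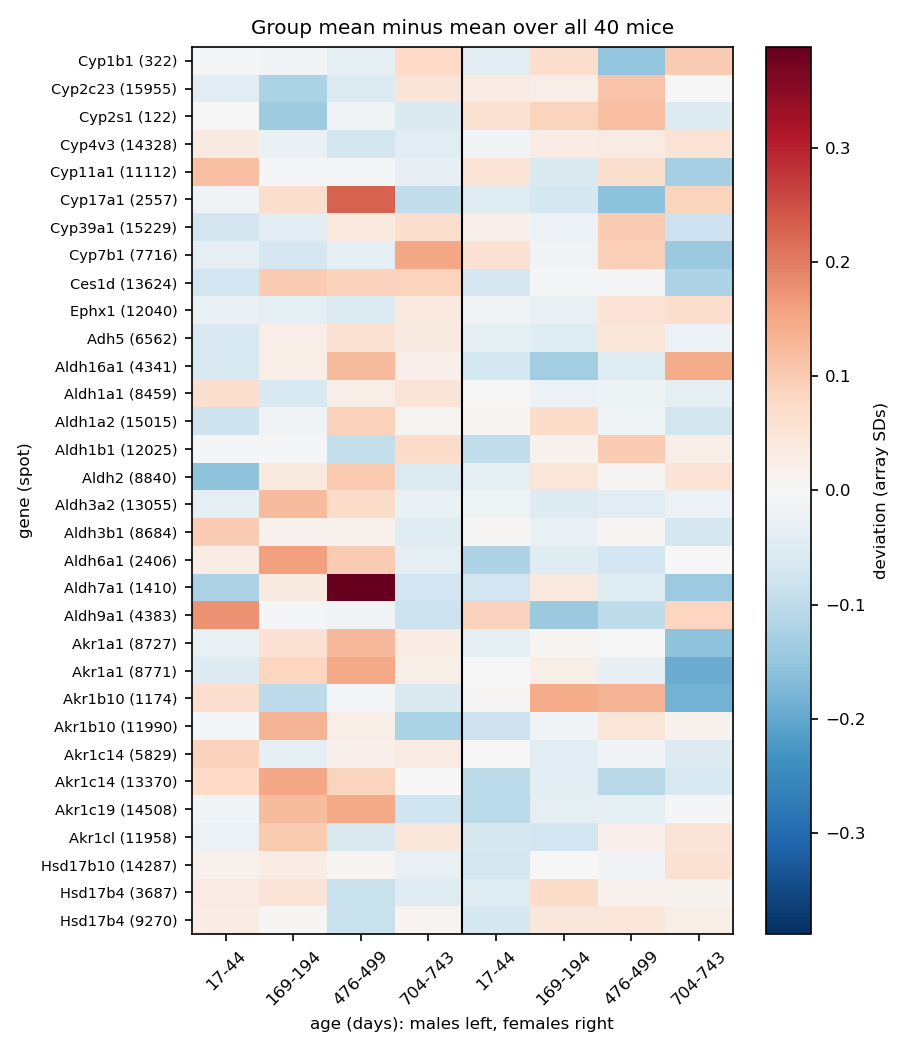
Mean of each group minus the mean over all 40 mice, in array SDs, for each of the 32 clones (rows), males in the left 4 columns by age and females in the right 4, red above and blue below the overall mean. Of 256 cells, 213 lie within 0.1 of 0, and the extremes are Aldh7a1 in males of 476 to 499 days (0.388) and Akr1a1 (8771) in females of 704 to 743 days (-0.194).

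The partners of these enzymes were measured through 3 lists. The regulators were mostly nuclear receptors and other transcription factors, with the growth hormone receptor Ghr among those measured. Of these regulators, 11 of 34 genes were present on 15 clones, and 0 were called in any comparison. Over all clones at most 0.107% were called in a comparison. Of the electron donors and haem enzymes, 15 of 20 genes were present on 19 clones, and 1 clone was called, that of Cyb5a, cytochrome b5, which passes electrons to P450 enzymes. It was higher in males by 0.366 ± 0.0439 (SE, limma adjusted p 1.8e-06) and by 0.351 ± 0.0506 in the 3 older groups (adjusted p 0.00011). Of other phase I and II enzymes, 14 of 40 genes were present on 16 clones, and 1 clone of Ephx2, the soluble epoxide hydrolase, was called higher in males, by 0.306 ± 0.0576 (adjusted p 0.00646) and 0.311 ± 0.0665 in the older groups (adjusted p 0.0387). That clone was among the dimmest 25%, and the second Ephx2 clone was not called. The proximal tubule markers Cubn, Gatm, Lrp2 and Miox, 4 of 22 listed genes on 5 clones, were not called between sexes or ages. Between ages 0% of all clones were called, so no list could hold a call there. The deviation of the proximal tubule markers averaged over the 5 clones ranged from -0.163 to 0.14 in males and from -0.0972 to 0.11 in females. By age it had a mean of -0.0547 ± 0.0589 (SD, n = 10) at 17 to 44 days, -0.00245 ± 0.0314 at 169 to 194, 0.0304 ± 0.0567 at 476 to 499 and 0.0267 ± 0.0632 at 704 to 743 days. In the early step 5 of 5 of these clones had the higher mean at the older age, beside 20 of the 32 enzyme clones and 51% of all clones. So did 5 of 5 liver, 3 of 3 endothelial, 4 of 5 adrenal, 3 of 5 macrophage and 1 of 1 adipocyte marker clones. For loop and distal tubule it was 1 of 4 and for collecting duct 0 of 1. The slope was positive on 5 of 5 proximal tubule and 3 of 3 endothelial clones, beside 50.3% of all clones. It was positive on 2 of 5 liver, 3 of 5 adrenal, 4 of 5 macrophage and 1 of 1 adipocyte clones. For loop and distal tubule the count was 3 of 4 and for collecting duct 0 of 1. The smallest p of the proximal tubule slopes was that of Miox, 0.0753 ± 0.0324 per year (p 0.0246, limma adjusted p 0.937). Markers of other lists had smaller p: Apob of liver gave 0.0986 ± 0.0299 (limma p 0.00192, adjusted p 0.831) and C1qa of macrophages 0.0798 ± 0.0336 (limma p 0.0222, adjusted p 0.937). The part of proximal tubule RNA in the enzyme values was not tested.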

How the data were processed

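Kidney RNA of 40 mice was measured on 80 nylon filter arrays, 2 per mouse. The values deposited by the authors are scores, with mean 0 and SD 1 on every array, as the columns show. Per the labels' protocols, total RNA was copied into cDNA with radioactive phosphorus. How images were read and corrected, and whether values were log or linear before scoring, is not given in the sources used here. No columns were left out (0). Sex and age came from the labels. The description of 1 male of 714 days named another mouse, and the title was followed. Because the spread of the arrays differed (interquartile ranges up to 7.63% from typical in set A, 4.21% in B), quantile normalization was run per set. The 8 sex and age means were fitted with limma 3.58.1 (R 4.3.3) on all 40 mice, and a yearly slope (365 days) with a term for sex. Benjamini-Hochberg adjustment covered both sets together, with calls at an adjusted p below 0.05. The fits were tested on simulated data. The planted shifts were larger than every sex difference over all ages and every slope of the 32 clones. That test does not cover shifts of their size. Names came from the platform annotation, and all 32 clones matched RefSeq of GRCm38.p6 by gene identifier. Members and lists were chosen with earlier results of these data known. Clones described were the 3 smallest p-values in each direction of every comparison, the brightest of each role and other clones of those genes, with the remaining members given briefly. Replicate numbers are accession order and equal the 5 rounds inferred from title serial numbers, so the round was tried as a block. Other alternatives were unnormalized scores, array weights, and leaving out mice of 17 to 21 days, the dimmest 25% of clones, mice with an outlying array, or each mouse in turn. The number of arrays limits the precision.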

Additional observations from a re-analysis of the deposited data

Results flagged for a closer look

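A mouse stood apart from the other 4 of its group in 18 of 256 groups of 5 (32 clones, 8 groups each), on 14 clones, where the gap to the nearest mouse exceeded 0.71 of the group's range. Chance flags about 1 in 20 groups. The flags were counted on the 32 clones only, so their number cannot be set against that of other clones. Cyp2c23 (15955) was -0.156 in female 5 of 704 to 743 days and 0.081 to 0.151 in the other 4. Cyp17a1 (2557) was -0.603 in male 3 of 169 to 194 days and -0.45 to -0.415 in the other 4. Cyp17a1 (2557) was 0.416 in female 1 of 704 to 743 days and -0.696 to -0.63 in the other 4. Cyp7b1 (7716) was -1.72 in male 4 of 169 to 194 days and -0.883 to -0.603 in the other 4. Ces1d (13624) was 0.8 in female 1 of 476 to 499 days and 0.371 to 0.491 in the other 4. Ces1d (13624) was 0.0925 in female 4 of 704 to 743 days and 0.432 to 0.55 in the other 4. Adh5 (6562) was -0.175 in female 2 of 169 to 194 days and 0.0296 to 0.11 in the other 4. Aldh1a1 (8459) was 0.281 in male 4 of 169 to 194 days and 0.438 to 0.495 in the other 4. Aldh2 (8840) was -1.33 in male 1 of 704 to 743 days and -0.931 to -0.826 in the other 4. Aldh3b1 (8684) was -0.806 in male 4 of 704 to 743 days and -0.555 to -0.482 in the other 4. Aldh7a1 (1410) was 1.05 in male 5 of 476 to 499 days and -0.237 to 0.0457 in the other 4. Aldh9a1 (4383) was 2.56 in male 1 of 17 to 44 days and 0.61 to 0.861 in the other 4. Aldh9a1 (4383) was 1.77 in female 5 of 704 to 743 days and 0.705 to 0.933 in the other 4. Akr1b10 (11990) was -1.26 in female 3 of 476 to 499 days and -1.05 to -0.974 in the other 4. Akr1c14 (13370) was -0.587 in female 1 of 17 to 44 days and -0.431 to -0.386 in the other 4. Akr1c19 (14508) was 0.0257 in female 1 of 476 to 499 days and -0.566 to -0.484 in the other 4. Akr1c19 (14508) was 0.368 in female 5 of 704 to 743 days and -0.649 to -0.417 in the other 4. Hsd17b10 (14287) was 0.991 in male 5 of 169 to 194 days and 1.13 to 1.16 in the other 4. Of the 18, 4 came from mice with an outlying array: Cyp7b1, Aldh1a1, Ces1d in the oldest females, and Aldh9a1 in the youngest males.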

How the results depend on the processing

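No enzyme clone tested was called in any of the 7 comparisons under any of the 46 alternatives, 1 of which, without the dimmest 25% of clones, tested 28 of the 32 (counts 0 to 0 when 1 mouse was left out in turn). Counts of clones at an unadjusted p under 0.05 moved more. Without the mice of 17 to 21 days they were 3 of the 32 in place of 6 for the sexes over all ages, 3 in place of 1 for the sex difference of the older groups minus that of the youngest, 1 in place of 0 for the F test and 4 in place of 1 for the early age step. Over all 16896 clones the same counts went from 757 to 642, 363 to 871, 545 to 662 and 859 to 772. With array weights the counts of the 32 were 8 in place of 5 for the sexes in the older groups, 3 for the F test, 3 in place of 1 for the late age step and 4 in place of 2 for the slope. Over all clones they went from 752 to 1478, 545 to 998, 398 to 938 and 879 to 1250. Without mice with an outlying array the counts of the 32 were 1 for the F test, 2 for the late step and 0 for the slope. Over all clones they went from 545 to 500, 398 to 658 and 879 to 792. For the 32, leaving out 1 mouse in turn gave 4 to 7 for the sexes over all ages, 4 to 8 in the older groups, 0 to 2 for older minus youngest, 0 to 3 for the F test, 0 to 2 for the early step, 1 to 3 for the late step and 0 to 3 for the slope. The median of older minus youngest went from -0.0306 to 0.0406 without the mice of 17 to 21 days, and Cyp4v3 between the sexes from -0.0512 to 0.0107; the cause was not tested. Leaving out 1 mouse moved Aldh9a1 and Aldh1a1 in the early step, Hsd17b4 (9270) and Ces1d in older minus youngest, Cyp2c23 in the late step and the slopes of Akr1b10 (1174) and Aldh1b1 by over 1.5 times, as given with those values. Over all clones of the 32, named or not, leaving out 1 mouse, an alternative chosen after seeing the data, turned the direction of 7 to 13 clones in a comparison with a direction. For the sex difference at a single age it turned 5 to 16 clones. With the round as a replicate block, 6 clones had an unadjusted p under 0.05 for the sexes over all ages, 7 in the older groups and 2 in the F test, and no call changed among the 32. Over all 16896 clones these 3 counts went from 757 to 1045, 752 to 1109 and 545 to 1120. Apart from Cyp4v3, the 212 values of named clones under alternatives that left out no single mouse, and the 1440 with 1 mouse left out, all in the comparisons that named them, kept their direction and their side of the threshold.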

Other observations

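The share of a clone's variance that went with the 5 rounds of arrays had a median of 11.1% over the 32 clones and 18.4% over all clones. It ran from 0.213% for Aldh3a2 to 49.1% for Akr1cl. The share that went with the 8 sex and age groups had a median of 18.6% over the 32 clones and 15.3% over all clones, and was 48.7% on Akr1a1 clone 8771 and 44.9% on clone 8727. A share of this kind is above 0 even for values with no group difference, since the groups are small.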
